A study of Homo sapiens with 12 samples.

Results

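The clustered histone genes were described in poly-A RNA of A375 cells, an established human melanoma line with a BRAF mutation. They were taken as all rows of the deposited count table whose gene name begins with HIST1H to HIST4H, which gave 73 of 26475 genes. By class these are 6 H1, 18 H2A, 20 H2B, 14 H3 and 15 H4 genes, and by locus 56 HIST1 genes on chromosome 6, 13 HIST2 and 3 HIST3 genes on chromosome 1 and 1 HIST4 gene on chromosome 12. The annotation calls 3 of them pseudogenes. The cells had been treated for 24 h with 1 µM GSK343 and 1 µM XL413 together (GSK343+XL413), with 1 µM XL413 alone, with 1 µM GSK343 alone, or with the solvent DMSO, with 3 libraries per group that the labels call biological replicates. XL413 inhibits CDC7, the kinase that fires licensed replication origins, and GSK343 blocks EZH2, which methylates histone H3 as part of a Polycomb complex. All libraries were made from oligo-dT selected RNA, and all groups come from 1 line grown in culture with no other cells.

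Most genes of these clusters are replication-dependent. They have no introns, are transcribed at high rate in S phase, and their messages end after a short stem-loop instead of a poly-A tail. The stem-loop binding protein SLBP holds that hairpin while the U7 small nuclear ribonucleoprotein directs the cut just downstream, and NPAT drives transcription of the clusters. A smaller amount of histone message is polyadenylated: several genes have a poly-A site beyond the stem-loop and make tailed transcripts, mostly outside S phase and in differentiating cells. An oligo-dT library therefore shows the tailed fraction, and total histone message was not measured. H2A, H2B, H3 and H4 form the nucleosome core, and H1 binds the linker DNA between nucleosomes.

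The hairpin is shown for 6 genes, because whether a message can be tailed turns on what lies after it. Capitals mark the 16-base stem-loop, found by its consensus in the sense strand of GENCODE 29 transcripts (GRCh38). The first 3 genes were called in the tests below, and the other 3 hold much of the remaining H2A, H2B and H4 signal.
HIST1H2AC, chr6:26124664-26124689, plus strand: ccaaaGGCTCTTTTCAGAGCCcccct
HIST1H2BD, chr6:26158582-26158607, plus strand: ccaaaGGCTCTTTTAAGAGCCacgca
HIST3H2A, chr1:228457364-228457389, minus strand: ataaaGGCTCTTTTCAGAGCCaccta
HIST2H2AA3, chr1:149842218-149842243, minus strand: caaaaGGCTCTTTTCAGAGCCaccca
HIST2H2BE, chr1:149886183-149886208, minus strand: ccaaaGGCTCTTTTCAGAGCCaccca
HIST2H4A, chr1:149833027-149833052, plus strand: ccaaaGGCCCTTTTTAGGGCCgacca

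The H2A and H2B hairpins shown have the same stem letters, that of HIST2H4A differs inside the stem, and the genes differ in what follows. The longest annotated HIST1H2AC transcript with the hairpin runs on for 1128 bases after it, HIST2H2BE for 1729, HIST2H4A for 1167 and HIST3H2A for 390, whereas HIST1H2BD and HIST2H2AA3 end 39 and 35 bases after it. A match was found in annotated transcripts of 33 of the 73 genes, 24 of them with at least 100 bases after the hairpin and 9 ending nearer to it. For the other 40 genes no match was found, and 35 of those, HIST1H2BK and HIST1H1C among them, have an annotated length that is a multiple of 3, as a coding part without untranslated ends would have. A multiple of 3 does not prove this, since HIST1H4C has 435 bases, against 312 for HIST1H4K. For genes with only a coding part annotated, nothing can be read here about the ends of their messages.

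Most histone genes were near the limit of detection in these libraries. At least 1 count was found for 66 genes, and 7 were at 0 in all 12 libraries (HIST1H1T, HIST1H2AA, HIST1H2APS1, HIST1H2BA, HIST1H3I, HIST1H4G and HIST1H4L). A filter on low counts kept 38 genes for testing, 2 of 6 H1, 9 of 18 H2A, 12 of 20 H2B, 7 of 14 H3 and 8 of 15 H4. The 35 genes that did not pass held between them 59.01 to 117.92 expected counts per library. Just inside the filter were HIST4H4 with 74 counts and HIST1H3C with 90 counts over 12 libraries, and just outside were HIST1H3G with 94 and HIST1H1E with 87.

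The reads were concentrated in a few genes. Levels are CPM, counts scaled to the library size, and reads of a longer transcript count more often, so genes are compared with each other only per kilobase. Over the 12 libraries, HIST1H2BK had the highest level at 61.4 CPM per kb of its 381-base coding length, followed by HIST1H1C, a linker histone, at 16.9 CPM per kb of coding length, and HIST3H2A at 13.9 CPM per kb of transcript. Next came the copies HIST2H2AA3 and HIST2H2AA4, at 8 and 7.79 CPM per kb, and HIST1H2AC at 4.90 CPM per kb. The 2 copies had equal counts and differ here only by annotated length. The coding lengths leave out the untranslated ends, so the first 2 of these values are too high by an unknown factor.

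**Figure D1:**
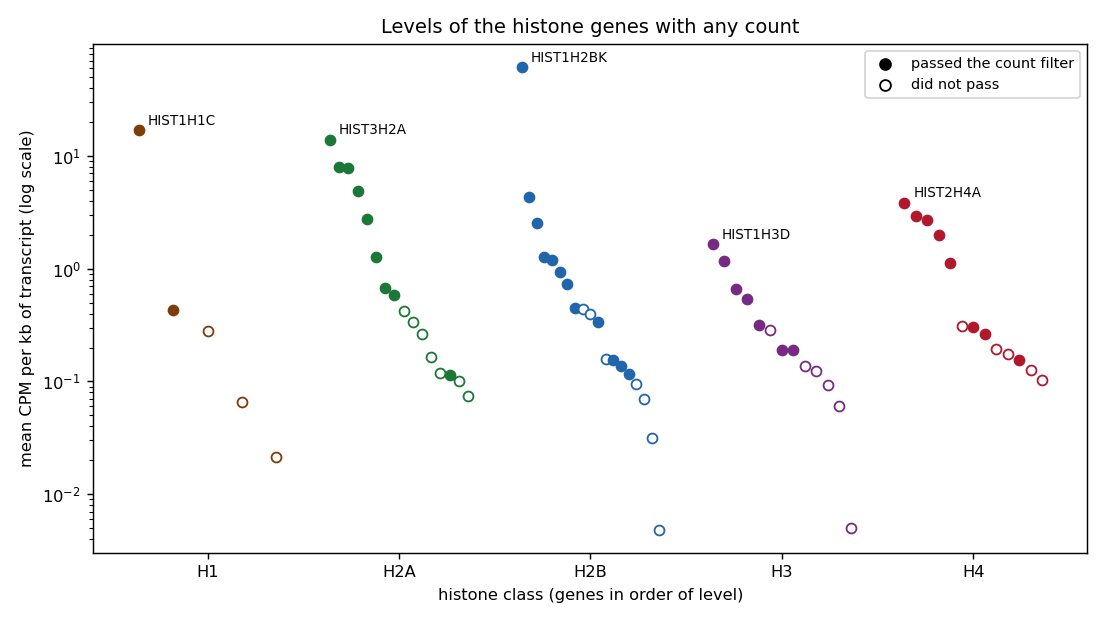
Mean level over 12 libraries of the 66 histone genes with any count, as CPM per kb of annotated transcript on a log axis, by class, with 1 point per gene, filled where the gene passed the count filter. HIST1H2BK stands at 61.4 CPM per kb and HIST1H3D, the highest H3 gene, at 1.65 CPM per kb.

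Within classes the reads were just as uneven. HIST1H1C held 95.1% of the H1 CPM, HIST1H2BK 61.5% of the H2B CPM and HIST3H2A 38.4% of the H2A CPM. The H3 class had no such leader, and HIST1H3D held 20.6% of its CPM. HIST2H4A held 28.1% of the H4 CPM. Its copy HIST2H4B had equal values in every library and so held the same share, and this pair led the H4 class. H2B genes together took 40.8% of all histone CPM, H2A genes 34.8%, H1 genes 12.2%, H4 genes 8.57% and H3 genes 3.53%.

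Facts of the whole series bear on these values in a few places. Library totals were 31553205 to 39079931 expected counts, and 18239 to 18551 genes had a count. GSK343+XL413 replicate 2 stood apart. The log2 deviation of a gene was taken from the mean of the other libraries of its group. This library therefore also enters the reference of GSK343+XL413 replicates 1 and 3. The SD of its genes' deviations was 0.277, against 0.134 to 0.178 in the other 11 libraries. Its deviations fell with transcript length (Spearman rho -0.64 over 12364 genes, against -0.447 to 0.564 in the other libraries, a description across genes). The median histone gene deviated by 0.13 in that library and by -0.23 to 0.15 in the others, the lowest in GSK343 replicate 3. Counts of called histone genes are given with and without GSK343+XL413 replicate 2. Levels, sums and log2 fold changes with both compounds include it. Of the melanoma and melanocyte markers, SOX10 averaged 332 CPM over the 12 libraries, MLANA 0.104 CPM and DCT 0.0775 CPM, and TYR was at 0. Summed, the 13 melanoma markers had 1300 to 1410 CPM in GSK343+XL413 libraries, 1460 to 1550 in XL413, 1450 to 1550 in GSK343 and 1580 to 1630 in DMSO, and their part in the histone results was not tested. Of the other cell types, PTPRC, which marks leukocytes, averaged 0.0309 CPM, EPCAM had 0.127 CPM and PECAM1 0.417 CPM, whereas the keratin KRT18 had 562 CPM and the collagen COL1A1 88.7 CPM.

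The histone genes called were a small set of H2A and H2B genes and 1 H1 gene. All were called higher, each in a group with XL413 against one without it. HIST1H2AC, HIST1H2BK and HIST1H2BD were called with XL413 alone, and with both compounds HIST3H2A, HIST1H2BJ and HIST1H1C were called as well. With XL413 alone HIST3H2A and HIST1H2BJ narrowly missed the threshold (edgeR adjusted p = 0.0554 and 0.0645), and their XL413 libraries all lay above DMSO. No H3 or H4 gene that passed the filter was called in any comparison. No histone gene was called lower in any, and GSK343 alone gave no call. A missed call does not show that a gene did not rise. All 3 GSK343 libraries lay above all 3 DMSO libraries for 6 of 38 tested histone genes (all genes 11.2%), and below for 2 (all genes 14%). HIST1H1C, HIST1H2AC and HIST1H2BD were among the 6. The H3 gene HIST1H3G, just outside the filter, passed it in 10 of the 12 fits that left out 1 library. In 9 it was called with both compounds against DMSO. Such fits ask for fewer libraries above the count minimum, and it did not pass without XL413 replicate 1 or GSK343+XL413 replicate 2. It thus entered through treated libraries where it was high, so these calls are a description and no support. HIST1H3G had 8, 20 and 10 counts in GSK343+XL413 libraries, 11, 6 and 8 in XL413, 7, 10 and 7 in GSK343 and 2, 4 and 1 in DMSO, and each treated library lay above each DMSO library. The tests are edgeR quasi-likelihood tests over 15443 genes, and a gene is called at a Benjamini-Hochberg adjusted p under 0.05. In RNA of whole cultures, a larger share of cells with a message and more message per cell cannot be told apart.

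HIST1H2AC, an H2A gene of the large cluster (chr6:26124145-26139116, plus strand), had the smallest adjusted p of the histone genes in each comparison that called any. It had 10.9, 12.2 and 11.3 CPM in GSK343+XL413 libraries, 9.19, 9.43 and 9.71 CPM in XL413, 6.77, 6.82 and 5.56 CPM in GSK343 and 5.51, 5.30 and 4.55 CPM in DMSO. Every library with XL413 lay above every library without it, and every GSK343+XL413 library lay above every XL413 library. Its log2 fold change was 1.17 ± 0.0968 (SE) with both compounds against DMSO (edgeR adjusted p = 3.76e-05) and 0.88 ± 0.0982 with XL413 against DMSO (adjusted p = 0.00217). With GSK343 alone it was 0.32 ± 0.101 and not called (adjusted p = 0.166), although the 3 GSK343 libraries lay above the 3 DMSO libraries. All 12 values of this gene were whole numbers.

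HIST1H2BK (chr6:27146418-27146798, minus strand), an H2B gene and the most abundant histone message here per coding length, behaved alike. Its levels were 29.1, 35.5 and 28.7 CPM in GSK343+XL413 libraries, 26.6, 28.6 and 25.6 CPM in XL413, 19.6, 20.6 and 16.3 CPM in GSK343 and 16.4, 17.4 and 16.4 CPM in DMSO. Libraries with XL413 again all lay above libraries without it, and the GSK343 and DMSO libraries overlapped. The log2 fold change against DMSO was 0.90 ± 0.0948 (SE) with both compounds (edgeR adjusted p = 0.000195), 0.69 ± 0.0956 with XL413 (adjusted p = 0.00612) and 0.17 ± 0.0974 with GSK343 (adjusted p = 0.474). Of its 12 values, 58.3% were not whole, so part of its reads had been divided by estimate with other genes.

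HIST1H2BD (chr6:26158146-26171349, plus strand), another H2B gene, followed the same order at a lower level. It had 4.28, 4.70 and 4.59 CPM in GSK343+XL413 libraries, 3.91, 3.98 and 3.81 CPM in XL413, 2.85, 3.42 and 2.995 CPM in GSK343 and 2.54, 2.37 and 1.87 CPM in DMSO. None of the 4 groups overlapped another. Against DMSO the log2 fold change was 1.00 ± 0.124 (SE) with both compounds (edgeR adjusted p = 0.000641), 0.78 ± 0.126 with XL413 (adjusted p = 0.0165) and 0.45 ± 0.128 with GSK343 (adjusted p = 0.122). The call with XL413 was lost when any 1 of DMSO replicates 2 and 3 or of the 3 XL413 libraries was left out, with adjusted p up to 0.0894.

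HIST3H2A (chr1:228456979-228457873, minus strand), an H2A gene of the small locus on chromosome 1, rose with both compounds. It had 14.9, 17.6 and 13.2 CPM in GSK343+XL413 libraries, 14.6, 14.5 and 14.2 CPM in XL413, 10.0, 10.5 and 9.63 CPM in GSK343 and 8.78, 11.4 and 9.94 CPM in DMSO. The libraries with XL413 did not overlap those without it, and the XL413 values lay inside the range of GSK343+XL413. The log2 fold change against DMSO was 0.61 ± 0.106 (SE) with both compounds (edgeR adjusted p = 0.00367), and with XL413 it was 0.53 ± 0.106 and missed the threshold (adjusted p = 0.0554). It was called with XL413 in 8 of 22 alternative analyses: without GSK343+XL413 replicate 2 or 3, with DESeq2, with no filter or a stricter one, with the replicate block, with the length and GC correction, and with only the 2 groups fitted.

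HIST1H2BJ (chr6:27125897-27132750, minus strand) is an H2B gene with low counts. It had 0.744, 1.04 and 0.775 CPM in GSK343+XL413 libraries, 0.817, 1.16 and 1.30 CPM in XL413, 0.424, 0.288 and 0.378 CPM in GSK343 and 0.545, 0.385 and 0.453 CPM in DMSO. Libraries with XL413 lay above those without it, and the point estimate was larger with XL413 alone (1.24 ± 0.262, SE, edgeR adjusted p = 0.0645, not called) than with both (0.89 ± 0.267, adjusted p = 0.0429). The call with both compounds was lost in 14 of 21 alternative analyses, with adjusted p up to 0.151: on leaving out any 1 DMSO or GSK343 library, without XL413 replicate 2, without GSK343+XL413 replicate 1 or 2, and in 5 other settings.

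HIST1H1C (chr6:26055787-26056428, minus strand) was the 1 called linker histone gene. Its levels were 11.6, 13.3 and 11.8 CPM in GSK343+XL413 libraries, 10.3, 11.2 and 10.5 CPM in XL413, 12.03, 11.4 and 9.93 CPM in GSK343 and 9.60, 9.90 and 8.70 CPM in DMSO. All 3 treated groups lay above DMSO without overlap, and with both compounds the estimate was smaller than for the 5 called H2A and H2B genes. The log2 fold change against DMSO was 0.38 ± 0.0872 (SE) with both compounds (edgeR adjusted p = 0.0138), 0.18 ± 0.0884 with XL413 (adjusted p = 0.398) and 0.24 ± 0.0879 with GSK343 (adjusted p = 0.222). The call was lost without DMSO replicate 3 and when only the 2 groups were fitted, with adjusted p up to 0.0636.

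**Figure D2:**
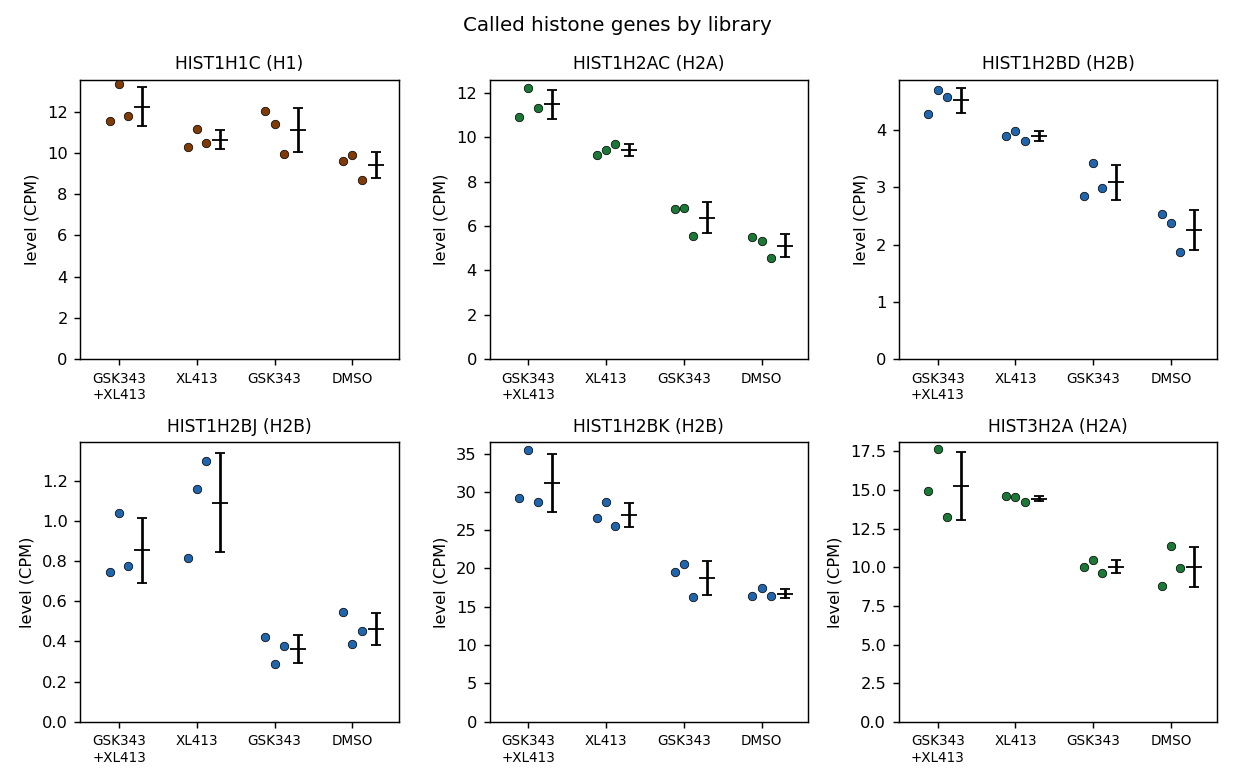
Level in CPM of the 6 called histone genes, with 1 point per library and groups from left to right GSK343+XL413, XL413, GSK343 and DMSO; the bar beside the points is the mean ± SD of 3 libraries. HIST1H2AC lies at 10.9 to 12.2 CPM in GSK343+XL413 libraries, and at 4.55 to 5.51 CPM in DMSO libraries.

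These counts have to be read against the number of genes called in the whole table. With XL413 against DMSO, 3 of 38 tested histone genes (7.89%) were called, all higher, against 66 of all 15443 tested genes (0.427%), of which 43 were higher (0.278%). Without GSK343+XL413 replicate 2, whose spread enters the fit, 5 histone genes were called with XL413, and over all genes 353 higher and 403 lower. With both compounds against DMSO, 6 of 38 (15.8%) were called, against 13.9% of all genes, so the overall share was close to the background. All 6 were higher, whereas the calls over all genes were divided between 6.69% higher and 7.25% lower. Without GSK343+XL413 replicate 2, 5 of 39 tested histone genes were called, all higher. Over all 15584 tested genes 1048 were then higher and 1287 lower. With GSK343 against DMSO, edgeR called 0 of 38 histone genes, against 1.17% of all genes (0.725% higher and 0.44% lower). At an unadjusted p under 0.05 there were 5 histone genes (13.2%) in that comparison, against 14.3% of all genes, and DESeq2 and limma-voom also called 0. Without GSK343+XL413 replicate 2, 0 histone genes were called with GSK343, and over all genes 399 higher and 559 lower.

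The combination was also set against each compound alone. Against GSK343, 4 of 38 histone genes (10.5%) were called, all higher, against 0.984% of all genes (0.648% higher). Without GSK343+XL413 replicate 2, 3 histone genes and over all genes 140 higher and 103 lower were called. HIST1H2AC differed by a log2 fold change of 0.85 ± 0.0941 (SE, edgeR adjusted p = 0.00186), HIST1H2BK by 0.73 ± 0.0936 (adjusted p = 0.00333), HIST3H2A by 0.61 ± 0.105 (adjusted p = 0.0178) and HIST1H2BD by 0.55 ± 0.119 (adjusted p = 0.0481). The HIST1H2BD call here was lost in 16 of 21 alternative analyses, with adjusted p up to 0.291, among them every fit that left out 1 library other than DMSO replicate 3. The HIST3H2A call was lost without GSK343 replicate 2 or 3 and without GSK343+XL413 replicate 1, with adjusted p up to 0.118. When only these 2 groups were fitted, 0 histone genes were called.

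Against XL413, edgeR called 0 of 38 histone genes, against 0.784% of all genes (0.557% higher and 0.227% lower). Without GSK343+XL413 replicate 2, 0 histone genes and over all genes 129 higher and 123 lower were called. At an unadjusted p under 0.05 there were 4 histone genes (10.5%), against 15% of all genes, and the 3 GSK343+XL413 libraries lay above the 3 XL413 libraries for 6 histone genes, including HIST1H2AC, HIST1H2BD, HIST1H2BK and HIST1H1C; over all tested genes this held for 10%. HIST1H4K was the 1 histone gene lower without overlap, against 9.84% of all genes. The estimate was 0.29 ± 0.0912 for HIST1H2AC (SE, edgeR adjusted p = 0.185) and 0.21 ± 0.0916 for HIST1H2BK (adjusted p = 0.3).

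Whether the effect of one compound changed in the presence of the other was tested as an interaction. It called 0 histone genes and 0 of 15443 genes, and at an unadjusted p under 0.05 there were 0 histone genes and 413 genes over all. For HIST1H2AC the interaction was -0.03 ± 0.136 on the log2 scale (SE), for HIST1H2BK 0.04 ± 0.134, for HIST3H2A 0.08 ± 0.15 and for HIST1H2BD -0.23 ± 0.174 (edgeR adjusted p from 0.989 to 0.994). A p that misses the threshold does not show that the 2 effects add up.

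Summing each class shows how far the called genes set its total. H2B genes summed to 45.1, 51.2 and 45.8 CPM in GSK343+XL413 libraries, 41.7, 45.4 and 40.2 CPM in XL413, 34.0, 34.0 and 29.4 CPM in GSK343 and 29.9, 30.5 and 29.3 CPM in DMSO. H2A genes summed to 39.2, 43.1 and 37.1 CPM in GSK343+XL413 libraries, 36.6, 35.4 and 35.4 CPM in XL413, 29.4, 29.6 and 26.0 CPM in GSK343 and 24.8, 27.4 and 25.6 CPM in DMSO. In both classes all libraries with XL413 lay above all libraries without it. Relative to the DMSO mean, the H2B sum was 1.59-fold with both compounds, 1.42-fold with XL413 and 1.09-fold with GSK343, and the H2A sum 1.53-fold, 1.38-fold and 1.09-fold in the same order.

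With XL413, alone or combined, the other classes departed less from DMSO, whereas with GSK343 their ratios to DMSO were 1.24 for H3, 1.19 for H1 and 1.15 for H4. The H1 sum averaged 12.8 ± 1.06 CPM in GSK343+XL413 libraries, 11.3 ± 0.623 CPM in XL413, 11.7 ± 1.19 CPM in GSK343 and 9.80 ± 0.614 CPM in DMSO (SD, n = 3 each). The H4 sum averaged 8.44 ± 0.14 CPM with both compounds, 8.48 ± 0.84 CPM with XL413, 8.03 ± 0.998 CPM with GSK343 and 6.98 ± 0.0798 CPM with DMSO, and each treated library lay above each DMSO library. The H3 sum averaged 3.65 ± 0.646 CPM with both compounds, 3.42 ± 0.464 CPM with XL413, 3.36 ± 0.389 CPM with GSK343 and 2.72 ± 0.531 CPM with DMSO, and treated and DMSO libraries overlapped. All 73 genes together averaged 112.1 ± 7.81 CPM with both compounds, 101.5 ± 3.14 CPM with XL413, 83.8 ± 6.93 CPM with GSK343 and 75.3 ± 1.69 CPM with DMSO. No test was made of these sums, which take in all 73 genes by name and class and are a description.

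**Figure D3:**
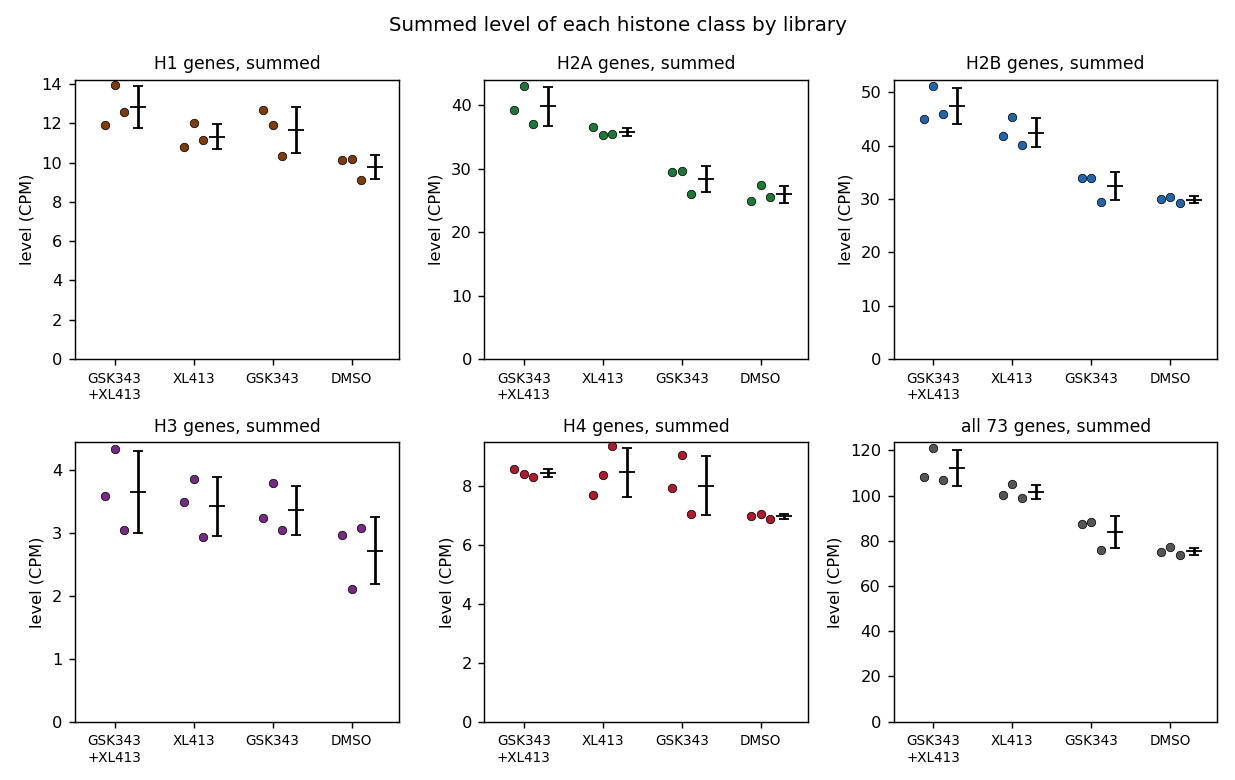
Summed level in CPM of the genes of each histone class and of all 73 genes, with 1 point per library and groups from left to right GSK343+XL413, XL413, GSK343 and DMSO; the bar is the mean ± SD of 3 libraries. The H2A and H2B sums of the 6 libraries with XL413 lie above those of the 6 libraries without it, and the H3 sums overlap.

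The 6 called genes held 63.2% of the histone CPM, and the 32 other tested genes 34.1%. The 6 summed to 75.5 ± 7.73 CPM in GSK343+XL413 libraries, 66.4 ± 2.13 CPM in XL413, 49.8 ± 4.38 CPM in GSK343 and 44.0 ± 2.49 CPM in DMSO, which is a description, since they were chosen by these differences. The 32 others summed to 34.1 ± 0.582 CPM with both compounds, 32.3 ± 0.905 CPM with XL413, 31.2 ± 2.51 CPM with GSK343 and 29.3 ± 0.877 CPM with DMSO. Without the 3 called genes, the H2B sum was 10.9 ± 0.869 CPM with both compounds, 10.5 ± 1.06 CPM with XL413, 10.2 ± 0.874 CPM with GSK343 and 10.4 ± 0.144 CPM with DMSO. With both compounds the sums of the genes not called were 1.04-fold DMSO for H2B, 1.21-fold for H2A and H4, 1.34-fold for H3 and 1.49-fold for H1, again a description, since the calls divide the classes.

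Across all 38 tested genes the estimates lay mostly above 0. With both compounds against DMSO, 29 of 38 were above 0 and their median log2 fold change was 0.30, beside 0.01 over all tested genes. With XL413 the same values were 31 of 38 and 0.20, beside -0.01, and with GSK343 27 of 38 and 0.09, beside 0.00108. With the length and GC correction the median was 0.17 with both compounds and 0.12 with XL413. The GSK343 median was 0.16 without DMSO replicate 1, 0.20 without DMSO replicate 3 and 0.21 without GSK343 replicate 3. By class, the median with both compounds was 0.71 for the 2 H1 genes, 0.25 for 9 H2A, 0.26 for 12 H2B, 0.52 for 7 H3 and 0.34 for 8 H4 genes, and 3 of the pairs inside these classes are copies with equal values. These 3 comparisons share the DMSO libraries.

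**Figure D4:**
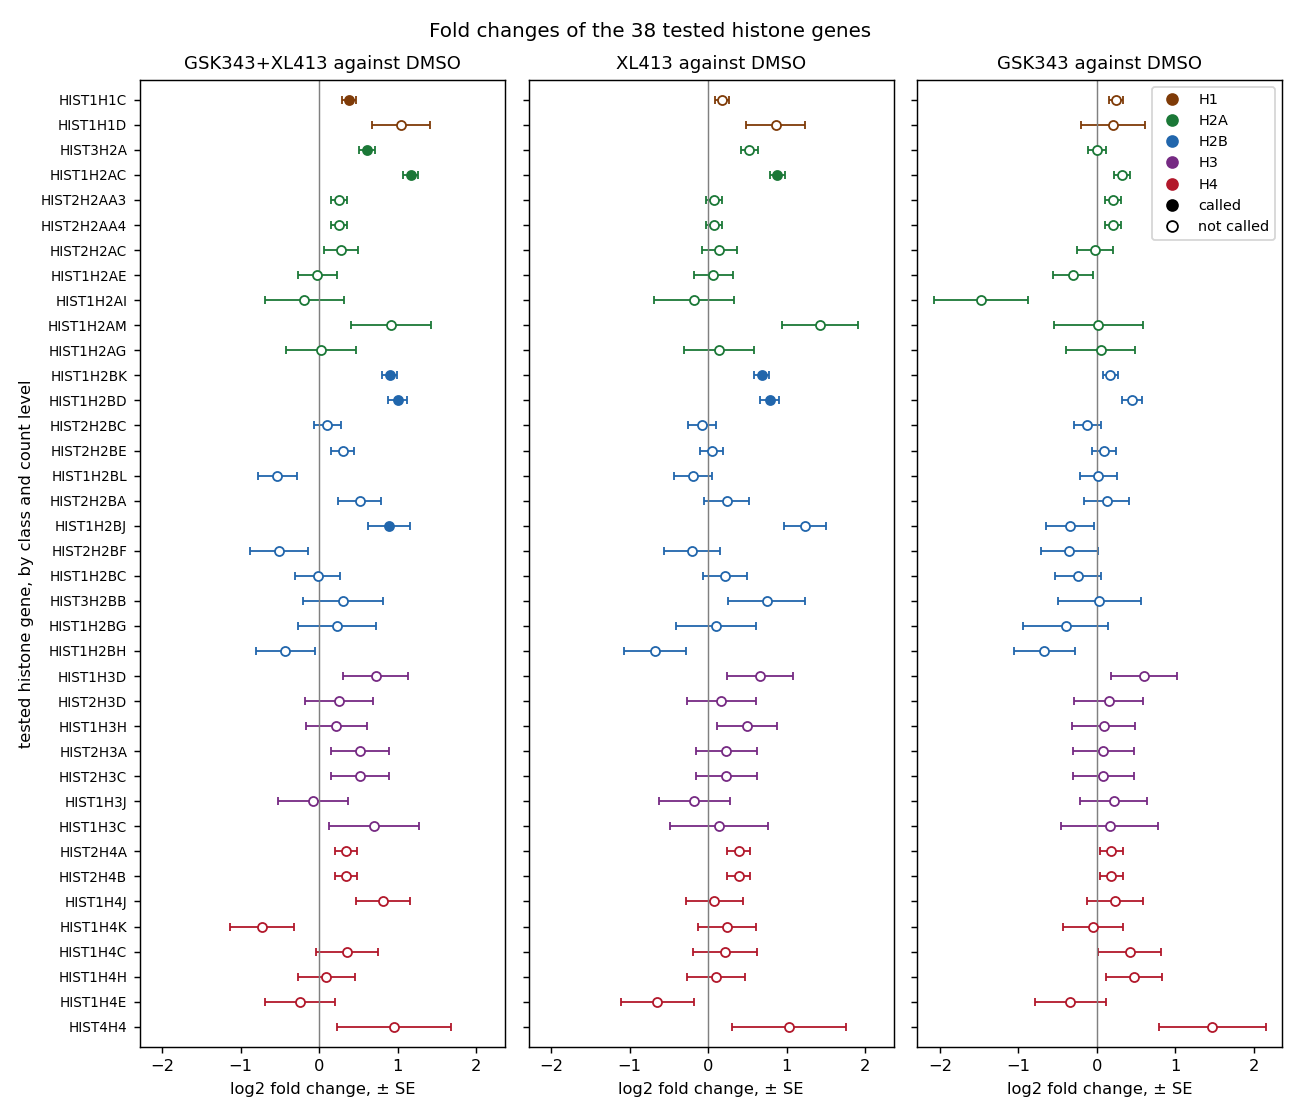
Log2 fold change with its SE for each of the 38 tested histone genes in GSK343+XL413, XL413 and GSK343 against DMSO, by class and in order of count level, filled where the gene was called. The 6 filled points with both compounds and the 3 with XL413 are all above 0 and belong to H1, H2A and H2B, and no point is filled with GSK343.

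Without overlap between groups, 12 histone genes were higher and 3 lower with both compounds than with DMSO, against 16.3% and 17.4% of all tested genes. With XL413 there were 9 higher and 1 lower (all genes 11.9% and 16.2%), and with GSK343 6 higher and 2 lower (all genes 11.2% and 14%). HIST1H2BH, an H2B gene with 98 counts in all, was the lower one with XL413: it had 0.248, 0.259 and 0.201 CPM in GSK343+XL413 libraries, 0.292, 0.224 and 0.0844 CPM in XL413, 0.151, 0.201 and 0.243 CPM in GSK343 and 0.333, 0.296 and 0.331 CPM in DMSO. Its log2 fold change was -0.68 ± 0.394 with XL413 (SE, edgeR adjusted p = 0.473) and -0.43 ± 0.378 with both (adjusted p = 0.473). HIST1H2BL, with 0.93, 0.908 and 1.06 CPM in GSK343+XL413 libraries and 1.12, 1.42 and 1.66 CPM in DMSO libraries, had a log2 fold change of -0.53 ± 0.249 with both compounds (SE, edgeR adjusted p = 0.166).

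Among the remaining H2A genes, HIST2H2AA3 and HIST2H2AA4 are copies on chromosome 1 that the counting could not tell apart, and their values were equal in every library. Each had 4.91, 4.72 and 4.65 CPM in GSK343+XL413 libraries, 4.68, 3.86 and 4.11 CPM in XL413, 4.96, 4.71 and 4.12 CPM in GSK343 and 3.94, 3.95 and 4.09 CPM in DMSO. GSK343+XL413 and GSK343 libraries lay above DMSO, and XL413 libraries overlapped it. With both compounds the log2 fold change was 0.25 ± 0.102 (SE, edgeR adjusted p = 0.118). HIST2H2AC averaged 1.22 ± 0.133 CPM with both compounds and 0.998 ± 0.104 CPM with DMSO (SD, n = 3 each), with a log2 fold change of 0.28 ± 0.221 (SE, edgeR adjusted p = 0.425). HIST1H2AG, the tested H2A gene with the lowest count level, had a log2 fold change of 0.02 ± 0.442.

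Of the H2B genes that were not called, the most abundant in reads were HIST2H2BC, annotated as a transcribed pseudogene, and HIST2H2BE, a gene whose annotated transcript runs far past its hairpin. HIST2H2BC averaged 3.16 ± 0.471 CPM with both compounds, 2.79 ± 0.587 CPM with XL413, 2.69 ± 0.377 CPM with GSK343 and 2.94 ± 0.315 CPM with DMSO (SD, n = 3 each). HIST2H2BE averaged 3.15 ± 0.133 CPM with both compounds, 2.64 ± 0.256 CPM with XL413, 2.73 ± 0.411 CPM with GSK343 and 2.57 ± 0.418 CPM with DMSO. The groups overlapped DMSO for both genes, with log2 fold changes with both compounds of 0.10 ± 0.172 and 0.30 ± 0.147 (SE, edgeR adjusted p = 0.726 and 0.187). HIST2H2BA, a further transcribed pseudogene, had 0.52 ± 0.275 (adjusted p = 0.225).

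Of the H4 genes, HIST2H4A and its copy HIST2H4B, again equal in every library, had 2.59, 2.33 and 2.31 CPM in GSK343+XL413 libraries, 2.23, 2.36 and 2.88 CPM in XL413, 2.19, 2.43 and 1.88 CPM in GSK343 and 1.88, 1.88 and 1.93 CPM in DMSO. Libraries with XL413 lay above DMSO, and GSK343 libraries overlapped DMSO. In log2 fold change this was 0.34 ± 0.142 with both compounds and 0.39 ± 0.142 with XL413 (SE, edgeR adjusted p = 0.126 and 0.248). HIST1H4J and HIST1H4K are near-identical, all their values were fractional, and their estimates had opposite signs (0.81 ± 0.345 and -0.73 ± 0.406 with both compounds), so their separate values are uncertain. HIST4H4, with the lowest count level of the tested H4 genes, had 0.96 ± 0.726.

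The H3 genes were the least abundant class in reads. HIST1H3D averaged 0.764 ± 0.393 CPM with both compounds, 0.759 ± 0.317 CPM with XL413, 0.714 ± 0.0859 CPM with GSK343 and 0.471 ± 0.159 CPM with DMSO (SD, n = 3 each). Its log2 fold change of 0.72 ± 0.416 with both compounds was not called (SE, edgeR adjusted p = 0.263), nor were those of HIST2H3D (0.25 ± 0.434), HIST1H3H (0.22 ± 0.393) and HIST1H3C (0.69 ± 0.573). The SE of the 7 tested H3 genes with both compounds was 0.369 to 0.573, against 0.0948 for HIST1H2BK, so a difference of the size measured for HIST1H1C was not detectable in H3 genes at this depth. HIST1H1D, the other tested linker gene, had a log2 fold change of 1.04 ± 0.365 with both compounds (edgeR adjusted p = 0.0739).

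Genes of these clusters often lie head to head and share the stretch between them, and 14 such pairs with starts within 500 bases were found in RefSeq annotation, with HIST1H2AD and HIST1H3D listed at the same start. In the pairs that hold a called gene the partner was a minor gene. HIST1H2AC starts 246 bases from HIST1H2BC, which had 0.608 ± 0.198 CPM with both compounds, 0.71 ± 0.104 CPM with XL413, 0.52 ± 0.128 CPM with GSK343 and 0.611 ± 0.0326 CPM with DMSO (SD, n = 3 each). The log2 fold change of HIST1H2BC with both compounds was -0.02 ± 0.282, beside 1.17 ± 0.0968 for HIST1H2AC (SE), and the difference between partners was not tested. HIST1H2BJ lies 248 bases from HIST1H2AG (0.02 ± 0.442), and HIST3H2A 230 bases from HIST3H2BB (0.30 ± 0.511). HIST1H2BK lies 248 bases from HIST1H2AH, which did not pass the filter and had 0.124, 0.311 and 0.229 CPM in GSK343+XL413 libraries, 0.0583, 0.16 and 0.0563 CPM in XL413, 0.272, 0.144 and 0.108 CPM in GSK343 and 0.0606, 0.0296 and 0 CPM in DMSO. Tested without the filter, HIST1H2AH was called with both compounds against DMSO (log2 fold change 2.76 ± 0.795, SE, edgeR adjusted p = 0.0373), as was HIST1H3G (2.29 ± 0.548, adjusted p = 0.0147), from 54.01 and 94 counts over 12 libraries.

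The promoters of the 5 called core histone genes are shown, so that they can be compared. They run from 250 bases before to 50 after the start in RefSeq on GRCh38.p14, in the direction of the gene. Capitals mark TATAAA (the TATA box), CCAAT and ATTTGCAT (the octamer bound by POU factors such as OCT1, known for H2B genes), each searched on both strands, so a capital run can also be the reverse complement of a motif, and matches of different motifs or strands can overlap.
HIST1H2BK, chr6:27146809-27147108, minus strand: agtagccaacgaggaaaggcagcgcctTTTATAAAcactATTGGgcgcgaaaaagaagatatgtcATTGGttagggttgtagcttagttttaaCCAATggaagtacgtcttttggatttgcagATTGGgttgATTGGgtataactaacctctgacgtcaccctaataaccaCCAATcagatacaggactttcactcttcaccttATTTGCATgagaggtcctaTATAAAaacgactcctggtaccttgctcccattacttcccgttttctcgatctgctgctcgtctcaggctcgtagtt
HIST1H2BJ, chr6:27132746-27133045, minus strand: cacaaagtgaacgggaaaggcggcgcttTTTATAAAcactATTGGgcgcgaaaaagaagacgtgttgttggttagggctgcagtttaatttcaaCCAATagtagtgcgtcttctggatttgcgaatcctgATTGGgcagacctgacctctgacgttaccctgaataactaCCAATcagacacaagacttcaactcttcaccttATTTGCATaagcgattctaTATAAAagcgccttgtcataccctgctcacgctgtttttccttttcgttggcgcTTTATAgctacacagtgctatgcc
HIST1H2AC, chr6:26123922-26124221, plus strand: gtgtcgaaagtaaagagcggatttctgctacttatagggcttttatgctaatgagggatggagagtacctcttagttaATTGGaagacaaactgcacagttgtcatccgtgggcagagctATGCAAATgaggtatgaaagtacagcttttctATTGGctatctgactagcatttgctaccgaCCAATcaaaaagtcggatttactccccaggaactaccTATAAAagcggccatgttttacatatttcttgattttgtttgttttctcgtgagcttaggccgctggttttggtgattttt
HIST1H2BD, chr6:26157871-26158170, plus strand: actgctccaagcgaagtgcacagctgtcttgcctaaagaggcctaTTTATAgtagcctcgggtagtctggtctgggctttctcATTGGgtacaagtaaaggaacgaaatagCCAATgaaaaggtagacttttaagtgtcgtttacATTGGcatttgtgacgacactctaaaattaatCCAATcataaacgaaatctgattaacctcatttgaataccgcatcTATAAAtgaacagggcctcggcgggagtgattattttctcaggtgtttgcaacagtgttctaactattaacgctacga
HIST3H2A, chr1:228457824-228458123, minus strand: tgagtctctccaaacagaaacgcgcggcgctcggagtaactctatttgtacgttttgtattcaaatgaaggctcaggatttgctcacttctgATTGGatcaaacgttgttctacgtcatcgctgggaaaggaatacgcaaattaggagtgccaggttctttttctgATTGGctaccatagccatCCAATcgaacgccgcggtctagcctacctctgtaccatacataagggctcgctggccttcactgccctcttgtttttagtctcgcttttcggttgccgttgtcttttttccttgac

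The octamer letters occur in the first 3 of these promoters and not in the windows of HIST1H2BD and HIST3H2A. CCAAT occurs in all 5, and TATAAA in all but HIST3H2A. A RefSeq promoter was found for 65 of the 73 genes, the first listed being taken for 4 genes with several. The octamer was in 40.0% of them, against 1.77% of all 35116 promoters in the table, and by class in 77.8% of H2B, 68.8% of H2A, 8.33% of H3 and 0 of 6 H1 and 13 H4 promoters. The 1 H3 match is HIST1H3D, whose listed window is also that of HIST1H2AD and lies apart from the GENCODE gene, so the same letters count in both classes. Windows of head-to-head H2A and H2B partners can also overlap. Those of HIST1H2AC and HIST1H2BC hold the same octamer, so H2A and H2B matches are not all separate. CCAAT was in 84.6% of histone promoters against 34.6% of all, and TATAAA in 66.2% against 11.5%. Of the tested genes, 3 of 13 with the octamer and 3 of 21 without it were called in some comparison. A match describes these letters only.

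The called genes are listed here by annotated end, and no conclusion is drawn from the list. Annotation that holds only a coding part cannot show how the messages of HIST1H2BK and HIST1H1C end. Of the 24 genes with at least 100 bases after the hairpin, 18 were tested and 2 called (HIST1H2AC and HIST3H2A). Of the 9 that end nearer to it, 7 were tested and HIST1H2BD was called. HIST1H2BD has 2 annotated transcripts and was placed by the one with the hairpin. Of the 40 without an annotated hairpin, 13 were tested and HIST1H1C, HIST1H2BJ and HIST1H2BK were called.

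Of the genes that process histone messages or place histone proteins, those called against DMSO were all lower. Of 33 genes of histone transcription and 3′ processing, all tested, 0 were called higher and 6 lower with both compounds, 0 in either direction with XL413, and 0 higher and 1 lower with GSK343. SLBP averaged 118 ± 7.83 CPM with both compounds, 123 ± 7.31 CPM with XL413, 100 ± 2.89 CPM with GSK343 and 111 ± 2.66 CPM with DMSO (SD, n = 3 each) and was not called (log2 fold change with both 0.10 ± 0.0547, SE, edgeR adjusted p = 0.255). NPAT averaged 18.4 ± 2.28 CPM with both compounds, 20.7 ± 0.373 CPM with XL413, 21.0 ± 1.31 CPM with GSK343 and 21.0 ± 1.08 CPM with DMSO (edgeR adjusted p = 0.129 with both). Those that fell with both compounds included SRRT, which works with the cap-binding complex (-0.28 ± 0.0342, adjusted p = 0.000641), UPF1, a helicase used in histone message decay (-0.25 ± 0.0479, adjusted p = 0.00583), and CPSF1, a subunit of the polyadenylation machinery (-0.22 ± 0.0485, adjusted p = 0.0108). SRRT was the gene that fell with GSK343 (-0.16 ± 0.0341, edgeR adjusted p = 0.0406), a call lost in every fit that left out 1 library other than GSK343+XL413 replicate 2, with adjusted p up to 0.179.

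Replication-independent histone genes, which lie outside the clusters and make tailed messages, most but not all of them throughout the cell cycle, were far more abundant in reads. The 17 in the table summed to 2795 ± 182 CPM with both compounds, 2728 ± 48.5 CPM with XL413, 2763 ± 98.0 CPM with GSK343 and 2861 ± 36.3 CPM with DMSO (SD, n = 3 each), with overlapping groups except XL413, which lay below DMSO. Of the 11 tested, H1F0, a linker histone of slowly dividing cells, fell to 319 ± 4.25 CPM with both compounds and 315 ± 3.04 CPM with XL413, against 375 ± 5.02 CPM with DMSO (log2 fold change -0.23 ± 0.0327 and -0.25 ± 0.0327, SE, edgeR adjusted p = 0.00121 and 0.00481). CENPA, the centromeric H3, rose to 31.1 ± 1.93 CPM with both compounds, against 23.9 ± 1.04 CPM with DMSO (0.38 ± 0.09, edgeR adjusted p = 0.0162), a call lost without DMSO replicate 1 or 2 (adjusted p up to 0.0724). H3F3B, the most abundant of them in reads, had 861 ± 42.8 CPM with both compounds and 902 ± 12.7 CPM with DMSO and was not called.

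Of 28 histone chaperone and deposition genes, 0 were called higher and 7 lower with both compounds, 0 in either direction with XL413, and 0 higher and 2 lower with GSK343. DAXX, which deposits H3.3, fell with both compounds (-0.21 ± 0.0344, SE, edgeR adjusted p = 0.00276), as did the H3 and H4 importer IPO4 (-0.23 ± 0.0396, adjusted p = 0.00366) and the FACT subunit SSRP1 (-0.14 ± 0.0294, adjusted p = 0.00925). Of 24 S phase genes, 0 were called higher and 4 lower with both compounds, 0 in either direction with XL413, and 0 higher and 2 lower with GSK343. RRM2, a ribonucleotide reductase subunit, fell to 398 ± 12.9 CPM with both compounds, against 463 ± 1.83 CPM with DMSO (-0.22 ± 0.0343, SE, edgeR adjusted p = 0.00214), and POLD1, the catalytic subunit of a replicative polymerase, to 133 ± 3.36 CPM, against 149 ± 3.17 CPM (-0.17 ± 0.0397, adjusted p = 0.015). The POLD1 call was lost without DMSO replicate 2 or 3, with adjusted p up to 0.0632. With GSK343 alone the called genes were the CAF-1 subunit CHAF1A (-0.18 ± 0.035, edgeR adjusted p = 0.0248), TONSL, which binds new histones at forks (-0.21 ± 0.0462, adjusted p = 0.0468), POLD1 (-0.20 ± 0.0398, adjusted p = 0.0286) and RRM2 (-0.17 ± 0.0343, adjusted p = 0.0322), calls lost in 7 to 11 of the 12 fits that left out 1 library, with adjusted p up to 0.183. Across all genes 7.25% were called lower with both compounds and 0.44% with GSK343, which is the background of these counts, and no test was made of the lists.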

How the data were processed

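Values in the authors' deposited table are expected counts from RSEM, estimates per gene that need not be whole, made with RSEM 1.2.15 after alignment to hg38 by Bowtie2 2.1.0, per the submitters' processing notes. Neither the gene annotation nor the strand setting of the counting is named by the labels. Reads that fit several genes are divided by estimate, so values of near-identical histone genes are uncertain. Each of the 12 columns was assigned to its group and replicate by the labels. The libraries were made with a strand-specific dUTP protocol from oligo-dT selected RNA, per the labels' protocols.

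After rounding, edgeR 4.0.16 (R 4.3.3) was used. Its filterByExpr, with the groups given, a count minimum of 10 and a total minimum of 15, left 15443 of 26475 genes, and libraries were scaled by TMM. A single quasi-likelihood model over the 12 libraries had 1 coefficient for each group and 8 residual degrees of freedom. Two-sided tests were adjusted by Benjamini-Hochberg over all tested genes. The SE was obtained from the log2 fold change and the square root of F. CPM are expected counts scaled to the effective library size (TMM). The scripts were tested on simulated counts with known changes.

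Alternatives were DESeq2 1.42.0, limma-voom (limma 3.58.1), other scalings and filters, a length and GC correction, a replicate block, fits of only the groups compared, and leaving out each library; summing near-identical copies was added after the data were seen. Lengths and stem-loops came from GENCODE 29 (GRCh38) and promoters from RefSeq (GRCh38.p14). The genes and lists were chosen with earlier results of these data known. Named were all called histone genes, the 3 highest in counts of each class, the 15 highest of all, the lowest tested of each class, those at the edge of the filter, and of each other list the called genes with the smallest p, the highest in counts, SLBP and NPAT; genes beside a called gene, genes whose groups did not overlap and genes called without the filter were named after their values were seen. Nothing in the labels says whether the biological replicates were grown separately, so p-values measure the spread between these libraries. No 2 libraries agreed within sampling noise (chi-square per degree of freedom 2.33 to 31.5 within groups). Counting error alone limits genes with few counts.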

Additional observations from a re-analysis of the deposited data

How the results depend on the processing

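Of the 6 counts, 18 class sums and 37 single-gene values recomputed under the alternatives, none changed direction. The 37 were chosen for an unadjusted edgeR p under 0.05 in these same data, so a reversal was unlikely from the start. Other printed estimates were not recomputed. The HIST1H2AC and HIST1H2BK calls with XL413 and with both compounds, each against DMSO, held in all 22 alternatives. The count of called histone genes with XL413 against DMSO was 3, where 43 genes of the whole table were called higher and 23 lower. It was 5 with the length and GC correction, where 225 were higher and 321 lower over all genes. With only the groups compared it was 5 of 28 tested, where 680 of 14995 genes were higher and 714 lower. It was 2 to 5 when 1 library was left out (5 without GSK343+XL413 replicate 2). The calls over all genes thus rose as well where the count was 5. For both compounds against GSK343 the count was 4, and 2 to 4 when 1 library was left out (2 without GSK343 replicate 2 or 3 or GSK343+XL413 replicate 1). It was 0 with only the groups compared, where 0 genes of the whole table were called. For both compounds against DMSO it was 6, and 4 to 7 when 1 library was left out. The counts for GSK343 against DMSO, both compounds against XL413 and the interaction were 0 in every alternative. With the replicate block, 4 histone genes were called with XL413 and 5 with both compounds against DMSO, and 3 with both against GSK343. Over all genes this block gave 33 higher and 13 lower with XL413, and 940 higher and 1125 lower with both against DMSO. Against GSK343, both compounds then gave 69 higher and 50 lower. The replicate numbers are not shown to pair libraries: deviations of same-numbered libraries correlated from -0.415 to 0.34 (median -0.05, 18 pairs), those of other libraries from -0.332 to 0.313. The H4 sum with both compounds moved to a log2 ratio to DMSO of 0.31 under upper quartile scaling and of 0.30 over tested genes alone. Summing near-identical copies, added after seeing the data, changed no call named here. The depth limits the 35 genes under the filter and most H3 and H4 genes, whose tests have wide errors.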

Other observations

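The histone loci differed in how far their summed levels departed from DMSO. The HIST1 genes on chromosome 6 summed to 71.4 ± 6.47 CPM in GSK343+XL413 libraries, 63.7 ± 2.89 CPM in XL413, 50.8 ± 4.84 CPM in GSK343 and 44.1 ± 1.67 CPM in DMSO (SD, n = 3 each). The HIST2 genes on chromosome 1 summed to 24.9 ± 1.03 CPM with both compounds, 22.7 ± 0.509 CPM with XL413, 22.5 ± 1.83 CPM with GSK343 and 20.9 ± 0.532 CPM with DMSO. The 3 HIST3 genes, nearly all of it HIST3H2A, summed to 15.6 ± 2.35 CPM with both compounds, 14.9 ± 0.403 CPM with XL413, 10.3 ± 0.401 CPM with GSK343 and 10.3 ± 1.24 CPM with DMSO. Relative to DMSO the HIST1 sum was 1.62-fold with both compounds and 1.44-fold with XL413, the HIST2 sum 1.19-fold and 1.09-fold, and the HIST3 sum 1.51-fold and 1.45-fold. The difference between loci was not tested, and the 6 called genes lie in HIST1 and HIST3.

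The 35 histone genes under the filter summed to 2.46 ± 0.553 CPM in GSK343+XL413 libraries, 2.69 ± 0.164 CPM in XL413, 2.87 ± 0.138 CPM in GSK343 and 1.99 ± 0.24 CPM in DMSO (SD, n = 3 each). Every XL413 and every GSK343 library lay above every DMSO library, and 1 GSK343+XL413 library lay inside the DMSO range.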
